A study of Homo sapiens with 4 samples.

Results

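Genes that encode histone-modifying enzymes and their relatives were examined in m6A-seq libraries of X-rayed HEK293T cells. They were chosen by gene symbol alone, as the KMT, KDM, SETD, SETDB, SUV39H, EHMT, EZH, NSD, PRMT, PRDM, HDAC, SIRT, KAT, JMJD, PHF and BRD families with a numbered symbol, plus ASH1L, ASH2L, DOT1L, EP300, CREBBP and HAT1. This gave 130 of 14911 genes, represented by 296 of 28413 transcripts. The pattern is wider than its name. Most PHF and BRD proteins read histone marks, most PRDM proteins are transcription factors, SIRT3, SIRT4 and SIRT5 work in mitochondria, PHF5A is a splicing factor, BRD3OS is a gene on the strand opposite BRD3 and JMJD7-PLA2G4B is a readthrough of 2 genes.

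HEK293T cells derive from human embryonic kidney and express the large T antigen of SV40. One population carried a control shRNA (shCTL) and the other an shRNA against ALKBH5 (shALKBH5, here shA5), and both were exposed to X-rays. ALKBH5 is a demethylase that removes m6A from RNA. Poly(A) RNA was fragmented and sequenced before (input) and after (IP) pull-down with an antibody against m6A, which gave 4 libraries with 1 library per group. No unirradiated library was analysed here, and the time after exposure and the shRNA used of those the study designed are not given in the sources used here. With 1 library per group no difference has a replicate check, so no p-value was computed. The intervals below are exact 95% intervals that cover counting error only.

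Library totals were 2237819 counts for the shCTL input, 3944402 for the shCTL IP, 1311390 for the shA5 input and 3148119 for the shA5 IP, so the shA5 input limited the precision. ALKBH5 had 486 input counts in shCTL and 145 in shA5, a log2 change of CPM (a gene's counts scaled to the library total) of −0.97 (−1.25 to −0.70). Of the HEK293T markers, LHX1 had 117, 277, 35 and 166 counts in that order of libraries and KRT8 had 48, 84, 27 and 117, whereas VIM had at most 8 and PAX2 at most 1. The members took 1.38 to 1.65% of each library's counts. KMT2D, which encodes an enhancer-associated methyltransferase of histone H3, alone gave 19.6 to 27.0% of the members' counts.

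Histone marks are written by acetyltransferases and methyltransferases, removed by deacetylases and demethylases, and read by domains such as the bromodomain and the PHD finger. Several of these enzymes act at DNA breaks, where acetylation and methylation of nucleosomes help to open chromatin and to recruit repair proteins. In mRNA, m6A is placed within a short motif of which GGACT is a frequent form, often near the stop codon and in long exons.

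Not every member could be measured. Of the 130 members, 60 averaged 50 counts or more across the libraries, as did 5320 of all genes, and values below are for these unless counts are given. A mean under 10 counts was found for 33 members. Families were assigned from the gene symbol, so not every member need have the activity that names its family. The fraction measured differed by family: 15 of 31 lysine methyltransferases, 7 of 22 lysine demethylases and JmjC proteins, 5 of 7 arginine methyltransferases, 5 of 14 PRDM proteins, 7 of 11 acetyltransferases, 3 of 11 zinc-dependent deacetylases, 2 of 7 sirtuins, 10 of 19 PHF proteins and 6 of 8 BRD proteins. Several enzymes that most cells express were almost without counts. In the order shCTL input, shCTL IP, shA5 input and shA5 IP, KAT5 (the TIP60 acetyltransferase, which acts at DNA breaks) had 0, 1, 2 and 1 counts, and PRMT5 (the main enzyme of symmetric arginine dimethylation) had 3, 7, 1 and 7. EHMT2, which writes a repressive methyl mark on histone H3, had 0, 2, 0 and 1 counts. EZH2, the catalytic subunit of Polycomb repressive complex PRC2, had 21, 24, 17 and 23 and also missed the minimum.

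The members were then set out by the number of coding transcripts that the annotation gives for the gene. For 126 members the most-counted transcript was matched in Gencode v44. Of the 12 with at most 1 annotated coding transcript, 11 reached the minimum (91.7%). The minimum was reached by 18 of 40 with 2 to 4 (45.0%), 16 of 40 with 5 to 9 (40.0%) and 14 of 34 with 10 or more (41.2%). Over all genes the shares were 49.8, 37.4, 28.8 and 25.7%. The median count per kb of transcript was 55.1, 12.02, 7.97 and 9.44 in these 4 classes of members, which is no steady fall with the number of transcripts. How the deposited counts treat reads shared between transcripts is not given in the sources used here, and its part in these levels was not tested. Levels of different members are therefore not ranked, and ratios between libraries of the same gene are used instead.

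**Figure D1:**
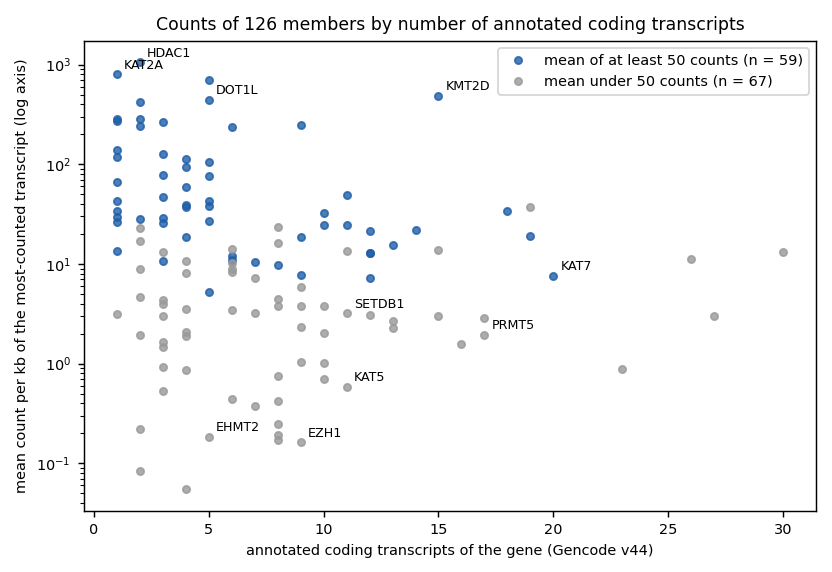
Mean count over the 4 libraries per kb of the most-counted transcript (log axis) against the number of coding transcripts annotated for the gene, for 126 members. Blue points have a mean of at least 50 counts (n = 59) and grey points do not (n = 67); all but 1 of the members with at most 1 coding transcript are blue, and EHMT2, KAT5 and EZH1 lie near the bottom.

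The sequences that follow are 21-nt windows of hg38 around the GGACT nearest to the stop codon in the most-counted transcript, shown for the members on which the comparisons below turn. The motif is in capitals and was searched on the transcript's own strand, and each window reads 5′ to 3′ along the transcript.
PRMT6: gccatggaGGACTgagcgttg, chr1:107057829-107057849, plus strand, exon 1 of 1, across the stop codon.
PHF13: ctgttcctGGACTgactgctg, chr1:6621623-6621643, plus strand, exon 4 of 4, across the stop codon.
KMT2B: cccaaaacGGACTggcccaca, chr19:35736748-35736768, plus strand, exon 31 of 37, coding sequence.
KMT2A: ccaagaaaGGACTtgtttttg, chr11:118510050-118510070, plus strand, exon 30 of 36, coding sequence.
DOT1L: ggaggctgGGACTggtccagt, chr19:2229946-2229966, plus strand, exon 28 of 28, 3′ UTR.
KDM3B: aaactcaaGGACTggcctcct, chr5:138427013-138427033, plus strand, exon 18 of 24, coding sequence.
KAT7: ccccctcaGGACTgtcctggc, chr17:49827623-49827643, plus strand, exon 15 of 15, 3′ UTR.
BRD7: cagaggttGGACTtgtattag, chr16:50319058-50319078, minus strand, exon 17 of 17, 3′ UTR.
SETD7: acaaccagGGACTgctcatgc, chr4:139511569-139511589, minus strand, exon 8 of 8, 3′ UTR.
HDAC1: gttggtgaGGACTgtccagta, chr1:32324484-32324504, plus strand, exon 4 of 14, coding sequence.
HDAC3: ctatgacaGGACTgatgaggc, chr5:141625247-141625267, minus strand, exon 14 of 15, coding sequence.
In PRMT6 and PHF13 the methylatable A of the motif is the next-to-last coding base, so GGACT ends on the first base of the stop codon. In KAT7, BRD7, DOT1L and SETD7 that A lies 134, 146, 167 and 87 nt beyond the last coding base.

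GGACT was common in the members, as in other genes. Of the 59 measured members with a matched transcript, 94.9% held at least 1 GGACT on the transcript strand, against 93.3% of measured genes and 90.9% of all 14742 transcripts searched. The number per transcript ran from 0 to 18. HAT1, PHF5A and SIRT7 had none, KMT2A had 18 and KMT2B had 14. A GGACT within 200 nt of the stop codon was found in 24 members (40.7%) and in 39.4% of measured genes, and one across the stop codon in 2 members and in 89 measured genes (1.68%). These letters describe where the motif lies, and the counts per transcript do not locate m6A within it.

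m6A enrichment was taken as log2 of IP CPM over input CPM, each with 0.5 CPM added, so that 0 stands for the average of the library and not for an unmethylated transcript. The first question was how strongly each member was recovered by the antibody within each population. In shCTL, 7 members were at least 1.5-fold higher in the IP than in the input (11.7%, against 22.5% of all measured genes) and 15 were at least 1.5-fold lower (25%, against 30.3%). In shA5, 11 members were higher (18.3%, against 24.3%) and 14 were lower (23.3%, against 31.7%). In both populations KMT2B, KMT2D, NSD1, PRDM13, PRMT6 and SIRT7 were higher (10%, against 18.7%) and 13 members were lower (21.7%, against 26.3%). By a second rule, that the counting interval is clear of 0, 20 members were higher in shCTL (33.3%, against 33.7%) and 18 lower (30%, against 42.3%), 14 were higher in shA5 (23.3%, against 32.6%) and 20 lower (33.3%, against 39.1%), and in both populations 14 were higher (23.3%, against 28.5%) and 16 lower (26.7%, against 35.6%). The median enrichment of the members was −0.02 in shCTL and −0.06 in shA5, and that of all measured genes −0.11 and −0.10.

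**Figure D2:**
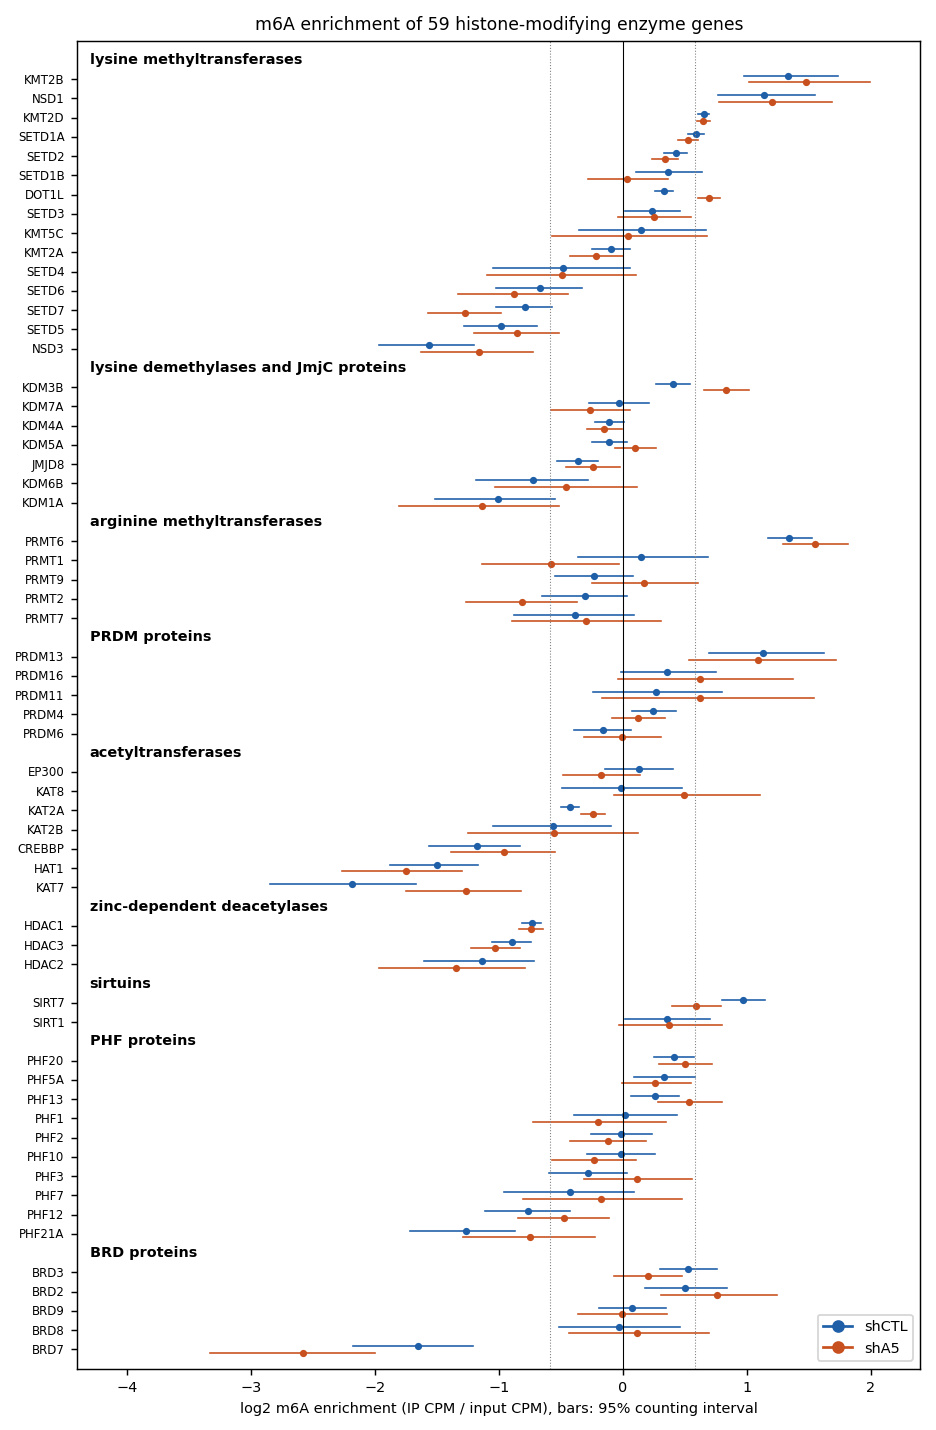
Log2 of IP CPM over input CPM (x axis) of 59 measured members, grouped by role, in shCTL (blue) and shA5 (orange); points are 1 pair of libraries each, bars are 95% counting intervals and dotted lines mark 1.5-fold. PRMT6 and KMT2B lie farthest to the right, BRD7 and KAT7 farthest to the left, and the 3 deacetylases lie left of 0 in both populations.

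Among the lysine methyltransferases, the median enrichment was 0.23 in shCTL and 0.04 in shA5, and the members spread widely. KMT2B, a promoter methyltransferase of the MLL family, had 72 input and 323 IP counts in shCTL and 42 and 283 in shA5, an enrichment of 1.33 (0.98 to 1.74) and 1.47 (1.02 to 1.99). NSD1, which dimethylates histone H3, had 71 and 278 counts in shCTL and 49 and 273 in shA5, an enrichment of 1.14 and 1.20. KMT2D, with 6020 and 16666 counts in shCTL and 3710 and 13973 in shA5, had an enrichment of 0.65 in both. These 3 genes were recovered by the antibody above the library average in both populations. NSD3, a relative of NSD1, was at the other end in shCTL with −1.56 (−1.97 to −1.20), and had −1.16 (−1.63 to −0.72) in shA5, where SETD7 was lower. The shCTL value of NSD3 was −2.35 when the most-counted transcript was used in place of the sum over transcripts. SETD5, SETD6 and SETD7 were also lower in the IP, with enrichments of −0.98, −0.67 and −0.79 in shCTL and −0.85, −0.88 and −1.27 in shA5. SETD6 overlaps exons of CNOT1 on the other strand, KMT2B those of IGFLR1 and NSD3 those of DDHD2. Such overlaps were found for 21 measured members, and whether the counting used strand is not given in the sources used here. Exons of another gene on the same strand, which strand cannot separate, were found for 6 measured members, among them KAT2A, KAT7 and KMT2D.

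The arginine methyltransferases had a median of −0.23 in shCTL and −0.30 in shA5, and PRMT6 stood apart from the rest. PRMT6, which writes an asymmetric arginine mark on histone H3, had 316 input and 1414 IP counts in shCTL and 141 and 992 in shA5. Its enrichment of 1.34 (1.17 to 1.52) and 1.55 (1.30 to 1.82) was level with that of KMT2B, whose intervals overlapped it in both populations, and no other member was higher. The order of the pair in shCTL turned with a pseudocount of 0.1 CPM. The other 4, PRMT1, PRMT2, PRMT7 and PRMT9, lay between −0.39 and 0.15 in shCTL and between −0.81 and 0.17 in shA5. Its most-counted transcript has a single exon, and its GGACT across the stop codon is shown above. PHF13, a reader of histone marks with the other such site, had an enrichment of 0.26 (0.07 to 0.45) in shCTL and 0.53 (0.28 to 0.80) in shA5. The median of the 89 measured genes with such a site was 0.17 in shCTL and 0.08 in shA5.

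All 3 measured zinc-dependent deacetylases were at least 1.5-fold lower in the IP in both populations, as were 26.3% of all measured genes. HDAC1, with 2593 input and 2745 IP counts in shCTL and 1497 and 2149 in shA5, had an enrichment of −0.74 in both. HDAC3, the catalytic subunit of the NCoR and SMRT corepressor complexes, had −0.90 (−1.05 to −0.74) in shCTL and −1.03 (−1.23 to −0.83) in shA5. HDAC2, a close relative of HDAC1 in the Sin3, NuRD and CoREST complexes, had −1.14 and −1.35 on 49 to 100 counts. The 3 together had a median of −0.90 in shCTL and −1.03 in shA5. Among the 7 acetyltransferases the median was −0.56 in both populations, and 3, KAT7, HAT1 and CREBBP, were at least 1.5-fold lower in both (against 26.3% of all measured genes). EP300 (0.13 in shCTL and −0.18 in shA5) and KAT8 (−0.01 and 0.49) were nearer to 0. HAT1, which acetylates newly made histone H4, had 177 and 109 counts in shCTL and 90 and 63 in shA5, an enrichment of −1.50 (−1.87 to −1.16) and −1.75 (−2.27 to −1.30), and its transcript held no GGACT. SIRT7, a nucleolar NAD-dependent deacetylase, also held none and was nevertheless higher in the IP, with 0.97 (0.80 to 1.14) in shCTL and 0.59 (0.40 to 0.79) in shA5. SIRT1, its nuclear relative, had 0.35 and 0.38.

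The median enrichment in shCTL and shA5 was −0.11 and −0.24 for the demethylases, −0.02 and −0.15 for the PHF proteins, 0.22 and 0.16 for the BRD proteins and 0.26 and 0.62 for the PRDM proteins. KDM3B, which removes methyl groups from a repressive site of histone H3, was the highest demethylase with 0.41 (0.27 to 0.54) in shCTL and 0.83 (0.65 to 1.02) in shA5. KDM1A, the flavin-dependent demethylase LSD1, was the lowest with −1.01 (−1.52 to −0.55) and −1.13 (−1.81 to −0.51) on 41 to 80 counts. The other 5 lay between −0.72 and −0.03 in shCTL. PRDM13, a neuronal transcription factor, had 50 and 195 counts in shCTL and 30 and 155 in shA5, an enrichment of 1.13 (0.69 to 1.62) and 1.09 (0.53 to 1.72). PRDM11 and PRDM16, both at 0.62, were also at least 1.5-fold higher in the IP in shA5, on 16 and 23 input counts and with intervals that held 0 (−0.17 to 1.54 and −0.04 to 1.37). PRDM6 was the lowest of its family with −0.16 in shCTL. Of the PHF proteins, PHF20, a subunit of a KAT8 acetyltransferase complex, was highest with 0.41 and PHF21A, a reader in the LSD1 complex, lowest with −1.27 in shCTL. Of the BRD proteins, the BET factors BRD2 and BRD3 had 0.50 and 0.53 in shCTL, whereas BRD7, a subunit of a SWI/SNF remodeller, had −1.65 (−2.18 to −1.21).

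Members with near relatives were then compared within the same libraries. Of 24 pairs of paralogs listed, 7 had both genes measured. In 2 of them the difference in enrichment was clear of 0 by its counting interval in both populations. KMT2A minus KMT2B, both of the MLL family, was −1.43 (−1.86 to −1.04) in shCTL and −1.69 (−2.25 to −1.18) in shA5. EP300 was above CREBBP, the other member of this coactivator pair, by 1.31 (0.86 to 1.79) in shCTL and 0.78 (0.26 to 1.32) in shA5. SETD1A against SETD1B, HDAC1 against HDAC2 and BRD2 against BRD3 were clear of 0 in shA5 and not in shCTL, and whether these differences changed between populations was not tested. KAT2A against KAT2B differed by 0.14 (−0.33 to 0.63) in shCTL and 0.32 (−0.37 to 1.02) in shA5, and BRD8 against BRD9 by −0.11 (−0.67 to 0.46) and 0.12 (−0.55 to 0.81), intervals that hold both 0 and differences past 1.5-fold.

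**Figure D3:**
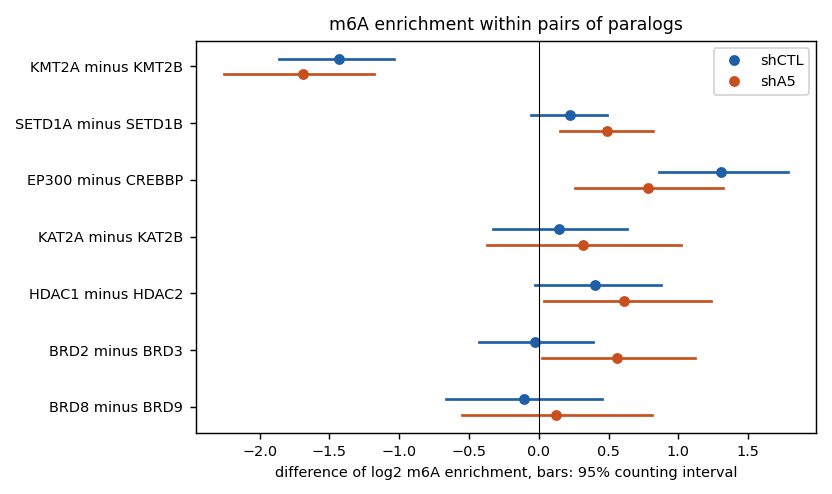
Difference in log2 m6A enrichment between the genes of each of 7 paralog pairs (x axis) in shCTL (blue) and shA5 (orange), with 95% counting intervals as bars. The bars of KMT2A minus KMT2B lie wholly left of 0 and those of EP300 minus CREBBP wholly right of 0 in both populations.

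Transcript features that the symbols do not fix were set beside enrichment across the 59 members with a matched transcript, as a description over genes that share the same libraries. GC content had the highest correlation with enrichment in shCTL (Pearson r = 0.41, Spearman rho = 0.39), and over 5292 genes it was 0.36 by both measures. The number of GGACT (rho = 0.11) and transcript length (rho = 0.01) had lower values. The median enrichment in shCTL was −0.24 for the 24 members with a GGACT within 200 nt of the stop codon and −0.02 for the 35 without (−0.04 for 2086 and −0.16 for 3195 of all measured genes).

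The second question was what differed when ALKBH5 was lowered. The order of the members' enrichment was similar in the 2 populations (n = 60, r = 0.92, rho = 0.92; all measured genes 0.92 and 0.93). The median change of enrichment, shA5 minus shCTL, was 0.0017 for the members and 0.0036 for all measured genes, with 30 members above 0 and 30 below. Each library was scaled to its own total, so a shift of m6A shared by most genes would not appear in these values. The same holds for the input RNA below. KAT7 alone increased by at least 1.5-fold (1.67%, against 5.38% of all measured genes), and BRD7 and PRMT1 decreased (3.33%, against 5.09%). The counting interval of the change was clear of 0 for 4 members with an increase, DOT1L, KAT2A, KAT7 and KDM3B (6.67%, against 8.18%), and for 3 with a decrease, BRD7, SETD7 and SIRT7 (5%, against 8.06%). KAT7 (1.67%, against 3.27%) and BRD7 (1.67%, against 3.55%) passed both rules at once.

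KAT7 (HBO1), the acetyltransferase that helps to license replication origins, had the largest increase. It had 94 input and 35 IP counts in shCTL and 81 and 80 in shA5, or 42.0, 8.87, 61.8 and 25.4 CPM. Its enrichment went from −2.18 to −1.26, a change of 0.92 (0.21 to 1.73), and its IP remained below its input in both populations. Both its input (0.55, with an interval clear of 0) and its IP (1.47, 0.93 to 2.13) were higher in shA5. KAT7 has 20 annotated coding transcripts and overlaps exons of FAM117A on the other strand.

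DOT1L and KDM3B had smaller changes on more counts. DOT1L, the methyltransferase of a lysine in the core of histone H3, had 2207 input and 4884 IP counts in shCTL and 1330 and 5175 in shA5. Its input differed by 0.04 (−0.06 to 0.14) and its IP by 0.41 (0.35 to 0.47), which gave a change of enrichment of 0.37 (0.25 to 0.48). DOT1L overlaps exons of PLEKHJ1 on the other strand. KDM3B had 627 and 1465 counts in shCTL and 307 and 1314 in shA5, a change of 0.43 (0.20 to 0.66) with an input difference of −0.26 (−0.46 to −0.06). KAT2A, the GCN5 acetyltransferase of the SAGA complex, had 2728 and 3587 counts in shCTL and 1229 and 2498 in shA5, a change of enrichment of 0.18 (0.06 to 0.31) with a lower input (−0.38, −0.48 to −0.28) and a lower IP (−0.20, −0.27 to −0.12). In DOT1L it was thus the IP that differed, and in KAT2A the input was lower by more than the IP. The other members among the 6 largest increases, PHF21A, KAT8, PRMT9 and NSD3, had changes of 0.40 to 0.52 with counting intervals that held 0.

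Decreases were led by BRD7 and PRMT1. BRD7 had 104 input and 57 IP counts in shCTL and 73 and 28 in shA5, and its enrichment went from −1.65 to −2.58, a change of −0.93 (−1.80 to −0.13). BRD7 overlaps exons of ADCY7 on the other strand. PRMT1, the main enzyme of asymmetric arginine dimethylation, had 48 and 94 counts in shCTL and 47 and 75 in shA5. Its IP was 23.8 CPM in both populations and its input was 21.4 and 35.8 CPM, so the change of enrichment of −0.73 (−1.51 to 0.03) came with a higher input. SETD7, a monomethyltransferase of histone and other proteins, had 324 and 329 counts in shCTL and 192 and 190 in shA5. Its input differed by 0.02 (−0.25 to 0.28) and its IP by −0.46 (−0.73 to −0.20), a change of enrichment of −0.48 (−0.86 to −0.11). SIRT7 had 363 and 1254 counts in shCTL and 276 and 998 in shA5, with an IP of 318 and 317 CPM and an input that was higher in shA5 by 0.37 (0.14 to 0.61), a change of enrichment of −0.38 (−0.64 to −0.12). PRMT2 and SETD1B had changes of −0.50 and −0.33 with intervals that held 0.

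**Figure D4:**
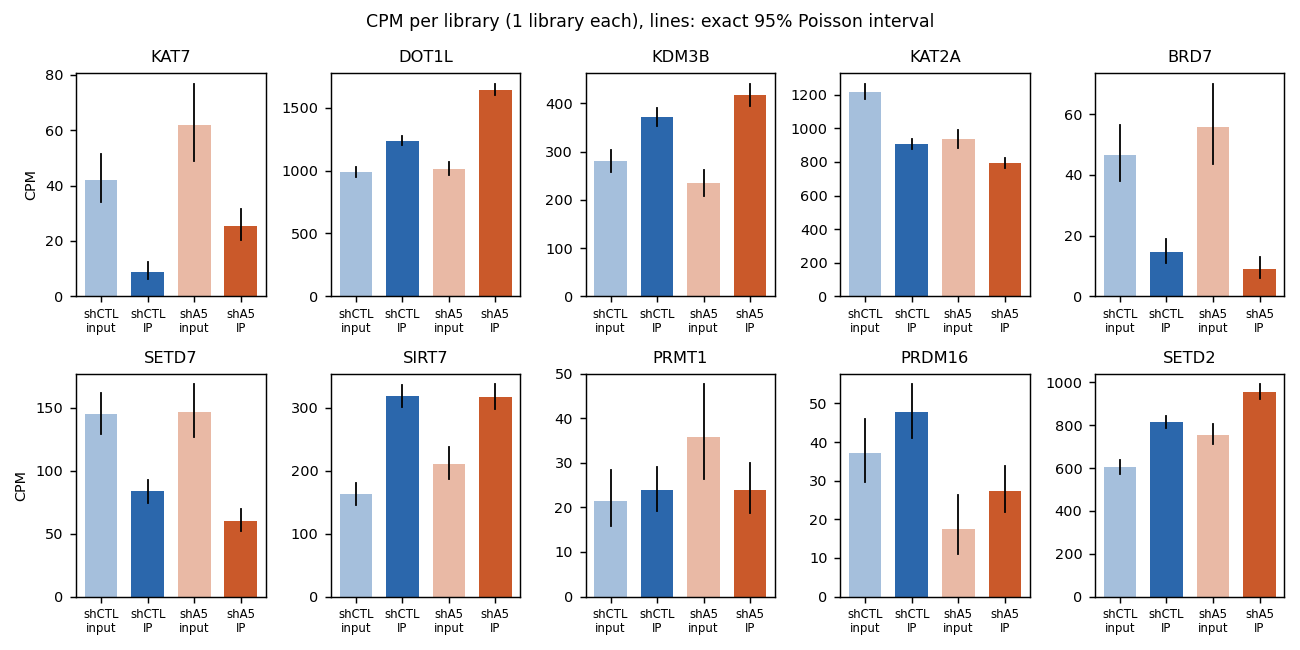
CPM of 10 members in each of the 4 libraries (bars, 1 library each; light for input, dark for IP, blue for shCTL, orange for shA5), with exact 95% Poisson intervals as lines. KAT7 has its highest bar in the shA5 input, DOT1L in the shA5 IP, and PRMT1 and SIRT7 have equally high IP bars in both populations.

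The input libraries were compared on their own as a measure of RNA level, in which less RNA per cell and fewer cells that express a gene cannot be told apart. The median change was −0.01 for the members and −0.02 for all measured genes. PRMT1 was the member at least 1.5-fold higher in shA5 (1.67%, against 3.44%), by 0.73 (0.13 to 1.35). PRDM16 and PRDM11 were at least 1.5-fold lower (3.33%, against 6.43%). PRDM16, a regulator of brown fat and of blood stem cells, had 83 and 23 input counts and 188 and 86 IP counts, so that input (−1.06, −1.81 to −0.40) and IP (−0.79, −1.19 to −0.43) were both lower in shA5. PRDM11 had 48 and 16 input counts, a change of −0.79 with an interval (−1.73 to 0.03) that held 0. It reached the minimum of 50 counts through shCTL, where its libraries averaged 75 counts against 38 in shA5, so its fall is given as a value only.

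By the counting interval, 9 members had a higher input in shA5 (15%, against 12.9%) and 6 a lower one (10%, against 15.6%). SETD2, which trimethylates histone H3 over transcribed genes, had 1354 and 992 input counts, a change of 0.32 (0.20 to 0.44). EP300 was higher by 0.40 (0.06 to 0.74), PHF5A by 0.33, SETD1A by 0.17 and KMT2D by 0.07. On the other side the change was −0.39 (−0.69 to −0.10) for PRMT6, −0.38 for KAT2A, −0.26 for JMJD8 and KDM3B and −0.25 for KMT2A. PRMT1 (1.67%, against 3.1%) and PRDM16 (1.67%, against 5.51%) passed both rules at once, and the differences of the others were under 1.5-fold. KAT2B, PHF3 and PRMT9, with −0.42, −0.41 and −0.40, had intervals that held 0. KAT2B, with 71 and 84 counts in shCTL and 31 and 50 in shA5, met the minimum of 50 counts through shCTL.

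**Figure D5:**
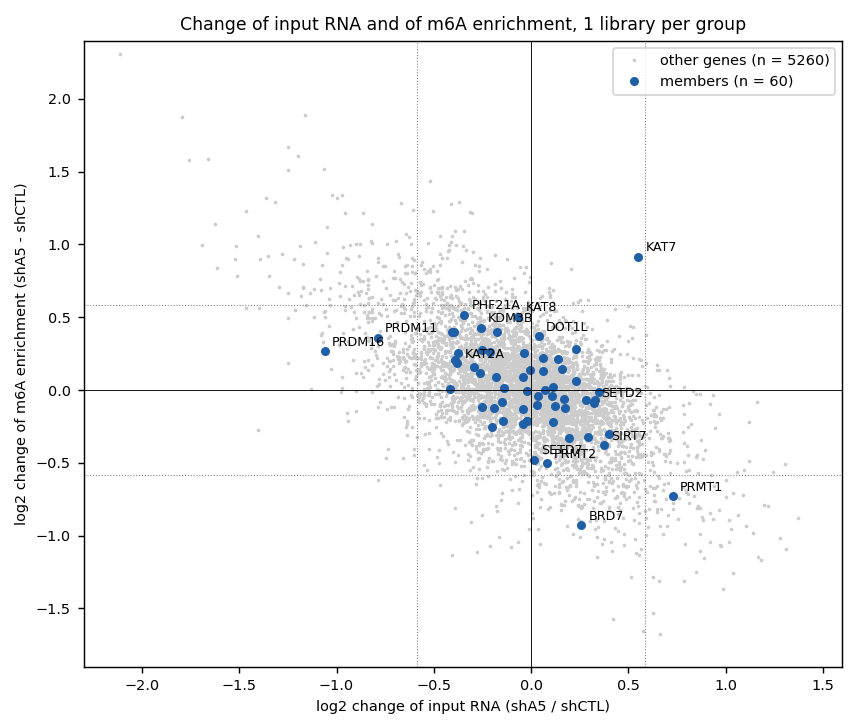
Log2 change of input RNA (x axis) and of m6A enrichment (y axis) from shCTL to shA5 for the 60 measured members (blue) and 5260 other measured genes (grey); dotted lines mark 1.5-fold. The same input libraries enter both axes, so they are not independent; KAT7 is the member above the upper line, BRD7 and PRMT1 lie below the lower line, and PRDM16 and PRDM11 lie left of the left line.

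Enzymes that textbooks tie to the DNA damage response were listed separately, since the cells had been irradiated. Of 25 such members, 13 were measured, among them CREBBP, DOT1L, EP300, HAT1, HDAC1, HDAC2, KAT2A, KAT8, KMT5C, PRMT1, SETD2 and SIRT1. Of these 13, 1 (PRMT1, described above) passed 1.5-fold in either direction in change of enrichment and in input. Of all measured genes, 5.38% increased and 5.09% decreased in enrichment, and 3.44% rose and 6.43% fell in input. KAT8, the acetyltransferase of a histone H4 lysine that loosens chromatin, had 59 and 103 counts in shCTL and 33 and 112 in shA5, a change of enrichment of 0.50 (−0.25 to 1.29). SIRT1 had 104 and 235 counts in shCTL and 66 and 206 in shA5, a change of 0.02 (−0.52 to 0.57), and HDAC1 one of −0.01 (−0.13 to 0.12). KMT5C, which writes a heterochromatic mark on histone H4, had 50 and 98 counts and 32 and 79, a change of −0.11 (−0.93 to 0.71). The 12 others, KAT5, EZH2, SETDB1, SUV39H1, SIRT6, KMT5A, PRMT5, NSD2, KDM4B, KDM5B, PHF6 and PHF8, had means under 50 counts, and a 1.5-fold change was not read from them.

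The enzymes work in complexes, and 64 partner genes of COMPASS, PRC2, deacetylase and acetyltransferase complexes were listed, of which 25 were measured. Their median enrichment was −0.02 in shCTL and 0.11 in shA5, with 4 at least 1.5-fold higher (16%, against 22.5% of all measured genes) and 5 lower (20%, against 30.3%) in the IP in shCTL, and 7 higher (28%, against 24.3%) and 8 lower (32%, against 31.7%) in shA5. Of the partners, 2 increased (8%, against 5.38%) and 3 decreased (12%, against 5.09%) by at least 1.5-fold in enrichment. TADA3, an adaptor of the SAGA acetyltransferase complex, had the largest increase, a change of 0.82 (0.04 to 1.63). With 99 and 58 counts in shCTL and 40 and 57 in shA5, TADA3 met the minimum of 50 counts through shCTL. Its input differed by −0.53 (−1.10 to 0.01) and its IP by 0.29 (−0.25 to 0.85), and its change is given as a value only. SAP30, of the Sin3 deacetylase complex, had the largest decrease, with 130 and 200 counts in shCTL and 79 and 98 in shA5 and a change of −0.75 (−1.31 to −0.20). RBBP4, a histone chaperone that PRC2 shares with both deacetylase complexes, had the largest rise of input, 0.65 (0.37 to 0.92). MTA1, of the NuRD deacetylase complex, had the largest fall, −0.66 (−1.22 to −0.14). With 111 and 72 counts in shCTL and 41 and 42 in shA5, MTA1 met the minimum of 50 counts through shCTL. Its fall is therefore given as a value only. HDAC1 and HDAC2, the catalytic subunits of the Sin3 and NuRD complexes, had changes of enrichment of −0.01 and −0.21 with intervals that held 0. Of 20 histone-modifying enzymes outside the symbol pattern, 8 were measured. None of the 8 changed in enrichment by 1.5-fold, where 5.38% of all measured genes increased and 5.09% decreased. Among these 8, the largest input change was that of SMYD4, 0.81 (0.60 to 1.02).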

How the data were processed

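The authors deposited whole-number counts per transcript for each of 4 libraries, grouped here by their labels. Per the submitters' processing notes, the reads were handled with bcl2fastq 2.0, fastp 0.23.2, HISAT2 and SAMtools 1.9 on hg38, and MACS2 is named for peaks, which were not analysed here. The study's methods name StringTie for gene quantification; its version, its use of strand and its treatment of shared reads are not given in the sources used here. No column of other samples was present.

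Counts were summed per gene symbol and divided by the library total (CPM). Enrichment, its change and the input change were log2 ratios with 0.5 CPM added, computed where a gene averaged 50 counts or more (5320 genes), and 1.5-fold was the call. Intervals of 95% (binomial for a ratio, conditional odds ratio for a change, Poisson for a CPM, none with added CPM) cover counting error only, since reads without molecular identifiers are not independent molecules. A count of 0 allows up to 3 counts, or 0.761 to 2.29 CPM. Transcript features and windows came from hg38 with Gencode v44.

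The members and lists were chosen with earlier results of these data known. The named genes are the highest and lowest enrichment in shCTL of each role, the 6 largest changes in each direction, measured paralog pairs and a DNA damage list. Others named were chosen after their values were seen, and 1 gene that the rule selects is not reported here. Alternatives were edgeR TMM factors, DESeq2 size factors, pseudocounts of 0.1 and 2 CPM, minimum means of 10 and 200 counts or none, a 2-fold threshold and the most-counted transcript per gene. The steps were tested on simulated data. Software was Python 3.11.15 (numpy 2.4.6, pandas 2.3.3, scipy 1.17.1, matplotlib 3.10.9) and R 4.3.3 (edgeR 4.0.16, DESeq2 1.42.0).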

Additional observations from a re-analysis of the deposited data

How the results depend on the processing

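No paired analysis was possible because no group held more than 1 library, and for the same reason no replicate could be left out. Of 914 values recomputed under the alternatives, 877 stayed within 1.5 times the main count or within the interval of the main value. The counts of members depended on the minimum mean and on the fold threshold. With a mean of at least 10 counts (97 members), 31 members were lower in the IP in shCTL and 28 in shA5, 11 increased and 11 decreased in enrichment, and input rose in 5 and fell in 10, where 35.8 and 37.8% of all 9269 genes were lower, 12.6 and 13.0% changed in enrichment and 9.32 and 12.5% in input. With at least 200 counts (29 members), 4 were higher and 3 lower in shCTL, 5 higher and 3 lower in shA5, and 0 changed in enrichment or input in either direction, against 29.1, 21.7, 31.0 and 23.7% of 2491 genes and 1.08 to 3.33% for the changes. With no filter the counts were 20 higher and 46 lower in shCTL, 25 and 42 in shA5, 23 increased and 23 decreased in enrichment, and 16 and 20 for input, against 21.6, 36.7, 24.5, 37.5, 22.7, 21.4, 15.3 and 19.9% of all genes. At 2-fold, 4 were higher and 8 lower in each population, 0 increased and 0 decreased in enrichment, and input rose in 0 and fell in 1 (PRDM16), against 10.1, 16.9, 12 and 18.4% of all genes for the IP, 0.846 and 0.771% for enrichment and 0.47 and 1.15% for input. These settings change which members are counted by construction. KAT7, BRD7, PRMT1 and PRDM16 were called for change under TMM factors, DESeq2 size factors, both other pseudocounts and the most-counted transcript. With that transcript in place of the sum, 16 values of named genes turned sign. Of these, 3 had been past 1.5-fold, in genes averaging under 50 counts: the shCTL enrichment of KDM5B became 0.13 and that of SETDB1 0.084, and the change of enrichment of PRMT5 became −1.36. For BRD2, a measured member, the change of enrichment turned from 0.26 to −0.42 and the input change from −0.38 to 0.17. The other 11 stayed within the counting interval of the main value. TMM factors turned the sign of 2 values and DESeq2 size factors of 1, all near 0. The shCTL enrichment of NSD3 moved to −2.35. The cause was not tested. PRDM11, past 1.5-fold in input, met the minimum through shCTL and is left out here. KAT7, BRD7, PRMT1 and PRDM16, on which the calls rest, have few counts, so their intervals are wide.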
